A study of Mus musculus with 6 samples.

Results

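The hormone gene Fgf23 and 4 genes whose products process its protein, Galnt3, Fam20c, Furin and Pcsk5, were followed across the Kupffer cell libraries. The 5 genes were chosen by symbol, and Fgf23 was selected on its measured difference between the groups compared here, so the members' levels and fold changes are a description and carry no test. All 5 were found among the 15458 rows of the deposited table, and all 5 were among the 13120 genes kept by the filter on low counts.

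The KC_Epo libraries came from Kupffer cells of C57BL/6 mice with tumours of Hepa1-6_EpoOE cells, a Hepa1-6 line that overexpresses erythropoietin. The KC_EV libraries came from Kupffer cells of C57BL/6 mice with tumours of Hepa1-6_EV cells, which carry the empty vector. Hepa1-6 is a mouse hepatoma line, and all mice were labelled wild type. Every sample in both groups came from a tumour-bearing mouse and was taken on day 18 after implantation. The Kupffer cells, macrophages that live in the liver sinusoids, were isolated by flow sorting, and each group had 3 libraries. The sources used here do not give the markers of the sort, the promoter of the erythropoietin construct, the number of tumour clones or the age of the mice. Only a number in the titles separates the libraries of a group, so whether they are separate animals is not known and their spread, on which every p-value rests, may be technical.

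FGF23 is a hormone made mainly by osteocytes and osteoblasts in bone. It acts on the kidney through FGF receptors paired with the co-receptor Klotho, where it lowers phosphate reabsorption and active vitamin D. Before secretion the protein can be cut by a furin-type protease at an arginine-rich site, which ends its activity as a full-length hormone. GALNT3 places an O-linked sugar within that site and protects it, while the secretory kinase FAM20C phosphorylates a serine beside it and hinders the sugar. Iron deficiency, inflammation and erythropoietin are known stimuli of Fgf23 transcription, with bone and marrow cells as described sources.

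The cleavage site is printed because the 4 processing genes act on it or at its side. It is read from the reference transcript of Fgf23, in exon 3 on the plus strand, chr6:127080230-127080277 in GRCm38, and covers codons 170 to 185 of the 251 codons of the coding sequence. Capitals mark codons 176 to 179, which begin and end with a codon for arginine and hold the threonine, codon 178, that GALNT3 glycosylates. Codon 180, the next one, encodes the serine that FAM20C phosphorylates.

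Fgf23 cleavage site: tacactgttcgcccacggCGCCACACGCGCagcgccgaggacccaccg

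A stretch of 4 codons with arginine first and last occurred 4 times in the coding sequence, and the one shown is the textbook cleavage site.

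Fgf23 was read in every KC_Epo library and was nearly absent from the KC_EV libraries. The KC_Epo libraries held 884, 240 and 264 Fgf23 counts, and the KC_EV libraries held 0, 1 and 0. In CPM, which are read counts scaled to a common library size with TMM factors and the unit of every level below, this was 28.4 (exact 95% Poisson interval 26.6 to 30.3), 7.72 (6.78 to 8.76) and 12.03 (10.6 to 13.6) in KC_Epo 1, 2 and 3. In KC_EV 2 it was 0.032 CPM (0.000809 to 0.178), and the counts of 0 in KC_EV 1 and 3 allow up to 0.0945 and 0.0885 CPM, the levels of 3 counts. The groups did not overlap, and the highest and lowest KC_Epo libraries lay well outside each other's counting intervals. Such intervals and floors cover counting error only.

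Fgf23 averaged 16.05 ± 10.91 CPM in KC_Epo and 0.01065 ± 0.01845 CPM in KC_EV (SD, n = 3 each). Pooled over libraries, 1388 Fgf23 counts among 88926969 in KC_Epo stood against 1 among 91757019 in KC_EV, a ratio of 1432 with an exact 95% counting interval of 257 to 56610. That ratio rests on a single KC_EV count. Without KC_EV 2 the other 2 KC_EV libraries hold no Fgf23 count. Taking 3 counts over the group as the floor, the ratio was then 325, which is no strict lower bound. Without KC_Epo 1 the ratio was 819, without KC_EV 1 it was 960 and without KC_EV 3 it was 930. KC_Epo 1 held 58.9% of the summed Fgf23 CPM of the 6 libraries, KC_Epo 2 held 16% and KC_Epo 3 held 25%. In bulk libraries, more cells of an expressing type and more RNA per cell cannot be told apart.

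**Figure D1:**
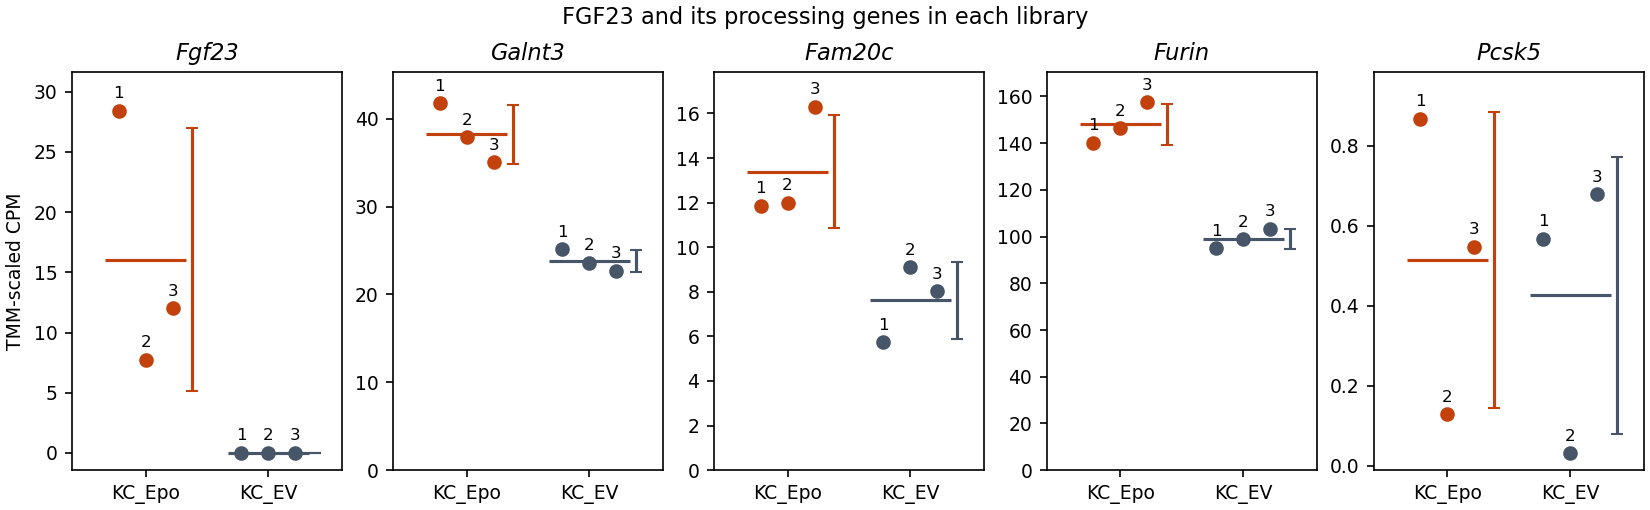
Levels of the 5 genes in each library, as TMM-scaled CPM on linear axes; points are libraries, numbered by replicate, horizontal lines are group means and vertical bars are ± 1 SD (n = 3 per group). Fgf23 lies between 7.72 and 28.4 CPM in KC_Epo and at or near 0 in KC_EV; Galnt3, Fam20c and Furin are higher in every KC_Epo library, and Pcsk5 overlaps between groups.

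Galnt3, which encodes the enzyme that starts O-glycosylation at the cleavage site, stood at 41.77, 37.9 and 35.04 CPM in KC_Epo 1, 2 and 3 and at 25.14, 23.62 and 22.68 CPM in KC_EV 1, 2 and 3. Every KC_Epo library was above every KC_EV library, and the spread within each group was small. The means were 38.23 ± 3.377 CPM in KC_Epo and 23.81 ± 1.241 CPM in KC_EV, a log2 fold change (KC_Epo over KC_EV) of 0.68 ± 0.10 (SE). The gap between KC_Epo 1 and 2, which was large for Fgf23, came to a ratio of 1.1 (95% counting interval 1.02 to 1.19) for Galnt3.

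Fam20c, which encodes the secretory kinase of the site, had 358 to 373 counts in the KC_Epo libraries and 182 to 285 in the KC_EV libraries. Its levels were 11.86, 12 and 16.31 CPM in KC_Epo and 5.733, 9.108 and 8.022 CPM in KC_EV. The groups did not overlap, KC_Epo 3 was the highest library and KC_EV 1 the lowest. The log2 fold change was 0.81 ± 0.19, and it was 0.65 without KC_Epo 3.

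Furin, the gene of the ubiquitous Golgi protease for which the site type is named, had the highest level of the 5 per length of exon in the comparison per kilobase further on. It stood at 140.3, 146.4 and 157.6 CPM in KC_Epo and at 95.01, 98.78 and 103.4 CPM in KC_EV. The groups did not overlap, and the log2 fold change of 0.58 ± 0.07 had the smallest error of the 5. The gene whose product protects the site (Galnt3) and those whose products favour its cut (Fam20c and Furin) were all higher in the KC_Epo libraries.

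Pcsk5 encodes another protease that can act on such sites. It was barely read, with 27, 4 and 12 counts in KC_Epo and 18, 1 and 23 counts in KC_EV. In CPM the values were 0.8674, 0.1287 and 0.5467 in KC_Epo and 0.567, 0.03196 and 0.6783 in KC_EV, so the groups overlapped fully and library 2 was the lowest of each. The log2 fold change of 0.26 ± 0.87 turned to -0.40 without KC_Epo 1 and to -0.28 without KC_EV 2, and at this depth no difference was detectable.

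Read against the whole table, 4 of the 5 members passed an adjusted p of 0.05 (edgeR quasi-likelihood test, Benjamini-Hochberg over all genes) with a higher level in KC_Epo, and none with a lower level. In the same comparison 32.3% of all tested genes passed, 16.9% higher and 15.4% lower, and since Fgf23 was picked on this contrast nothing is read from the members' count. The libraries of the 2 groups did not overlap for 4 of 5 members and for 48.3% of all tested genes. The median log2 fold change was 0.684 over the members, which is the value of Galnt3, and -0.0045 over all tested genes. Leaving out KC_Epo 3 took Fam20c out of the members that passed and leaving out KC_EV 2 took out Fgf23. Of all calls 52.4% were higher in KC_Epo with TMM factors. Upper quartile factors gave 40.6%, and scaling by library size alone gave 24.8% and moved the median of all genes to -0.16. The same 4 members passed under each of these scalings, with log2 fold changes of 0.53 for Galnt3 and 0.42 for Furin under library sizes only.

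Divided by the length of each gene's merged exons (GENCODE vM21), the mean level in CPM per kilobase was 16.1 ± 0.952 for Furin, 8.85 ± 6.01 for Fgf23, 8.74 ± 0.772 for Galnt3, 2.03 ± 0.384 for Fam20c and 0.0356 ± 0.0256 for Pcsk5 in KC_Epo. In KC_EV the order was Furin with 10.8 ± 0.46, Galnt3 with 5.44 ± 0.284, Fam20c with 1.16 ± 0.261, Pcsk5 with 0.0295 ± 0.0239 and Fgf23 with 0.00587 ± 0.0102. Fgf23 and Galnt3 did not differ beyond their spread in KC_Epo, since the Fgf23 libraries ran from 4.26 to 15.7 CPM per kilobase and the Galnt3 libraries from 8.01 to 9.55. In KC_EV, Fgf23 and Pcsk5 overlapped at the bottom of the order. The annotation is of another build than the one named by the submitters, so the lengths are approximate for these counts.

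Fgf23 was then set beside one gene each of red cells, hepatocytes and Kupffer cells. Hba-a1, an alpha globin gene whose near-identical copy Hba-a2 may share its reads, stood at 306.1, 166.7 and 209.7 CPM in KC_Epo and at 8.915, 10.55 and 10.06 CPM in KC_EV. Its log2 fold change was 4.53 ± 0.29 (edgeR quasi-likelihood adjusted p = 0.000441). Hba-a1 rose in every KC_Epo library, and the order among those libraries was that of Fgf23.

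Alb, the albumin gene of hepatocytes, stood at 14660, 3996 and 8587 CPM in KC_Epo and at 1752, 2128 and 1950 CPM in KC_EV. Its log2 fold change was 2.22 ± 0.54 (edgeR quasi-likelihood adjusted p = 0.0409). The groups did not overlap, the KC_EV libraries were close together, and KC_Epo 1 was again highest and KC_Epo 2 lowest. The call did not hold without KC_Epo 1, KC_Epo 3 or any one KC_EV library, and adjusted p ran from 6.67e-05 to 0.125 over the 16 alternatives.

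Clec4f, the lectin gene that marks Kupffer cells, stood at 10270, 11970 and 10850 CPM in KC_Epo and at 6252, 6330 and 6608 CPM in KC_EV. Its log2 fold change was 0.79 ± 0.09 (edgeR quasi-likelihood adjusted p = 4.03e-05). Clec4f rose too, but the order among KC_Epo libraries was the reverse of that of Fgf23, with KC_Epo 2 highest and KC_Epo 1 lowest.

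**Figure D2:**
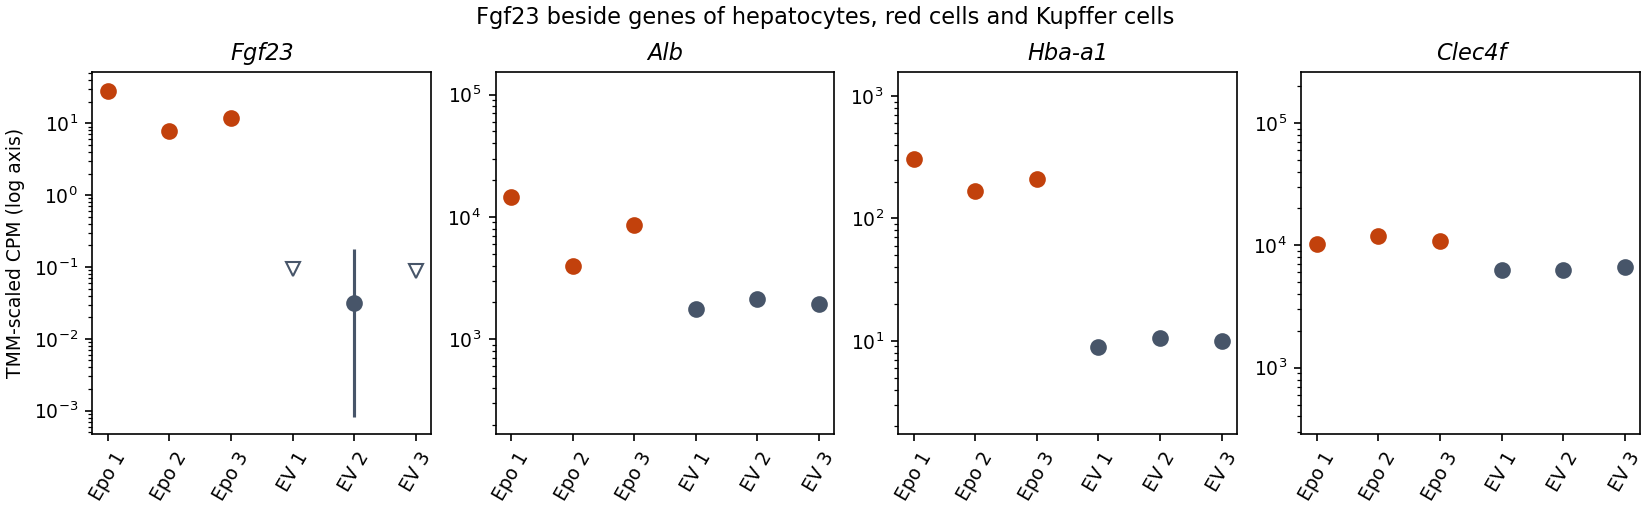
Level of Fgf23, Alb, Hba-a1 and Clec4f in each library, in TMM-scaled CPM on log axes; the Alb, Hba-a1 and Clec4f axes span the same number of decades and the Fgf23 axis spans more. Bars on Fgf23 are exact 95% counting intervals and open triangles are the level of 3 counts in libraries with none; Fgf23, Alb and Hba-a1 share the order 1, 3, 2 from high to low in KC_Epo, and Clec4f has the reverse.

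Per 1000 Hba-a1 counts, the KC_Epo libraries held 92.8 (exact 95% interval 86.8 to 99.1), 46.3 (40.6 to 52.6) and 57.4 (50.6 to 64.7) Fgf23 counts, and the 3 KC_EV libraries together held 1.05 (0.0265 to 5.84). Per 1000 Alb counts the values were 1.94 (1.81 to 2.07), 1.93 (1.7 to 2.19) and 1.4 (1.24 to 1.58) in KC_Epo and 0.00531 (0.000134 to 0.0296) in KC_EV. Per 1000 Clec4f counts they were 2.77 (2.59 to 2.95), 0.645 (0.566 to 0.732) and 1.11 (0.979 to 1.25) in KC_Epo and 0.00161 (4.08e-05 to 0.00898) in KC_EV. Within KC_Epo, the ratio to Alb varied least and that to Clec4f most, and KC_Epo 1 and 2 had overlapping intervals only for Alb. KC_Epo 2 and 3 had overlapping intervals only for Hba-a1. For Alb, the interval of KC_Epo 3 lay below those of KC_Epo 1 and 2.

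Between groups none of the 3 ratios stayed level. Pooled Fgf23 per Hba-a1 count was 68.6 times as high in KC_Epo as in KC_EV (95% counting interval 12.3 to 2710), per Alb count 340 times (60.9 to 13400) and per Clec4f count 926 times (166 to 36600). The mean level of the references themselves was 23.1 times as high for Hba-a1, 4.67 times for Alb and 1.72 times for Clec4f. The KC_EV libraries thus held 188297 Alb counts beside 1 Fgf23 count, and the KC_Epo libraries 769026 Alb counts beside 1388 Fgf23 counts. Whether Fgf23 was read from Kupffer cells or from other cells in the sorted material was not tested.

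The spread among the 3 KC_Epo libraries was wider for Fgf23 than for Galnt3, Fam20c and Furin. Fgf23 was 3.68 times as high in KC_Epo 1 as in KC_Epo 2 (95% counting interval 3.19 to 4.26), whereas the ratio was 0.988 (0.853 to 1.14) for Fam20c and 0.958 (0.919 to 0.999) for Furin. Pcsk5, with 27, 4 and 12 counts, had the order of Fgf23 and a ratio of 6.74 with a wide interval (2.35 to 26.5). Over 11700 genes with a mean of at least 30 counts in KC_Epo, this ratio had a median of 0.993 and a 95th percentile of 2.23, and 1.24% of genes were at or above Fgf23. The order 1, 3, 2 from high to low was found for 26.6% of those genes.

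The same ratio was taken over marker genes of several cell types. It had a median of 3.21 over 15 hepatocyte markers (range 1.36 to 4.76), 2.31 over 7 stellate cell and fibroblast markers, 1.9 over 10 sinusoidal endothelial markers, 1.84 over 7 erythroid markers (1.4 to 2.22) and 0.858 over 9 Kupffer markers (0.701 to 1.29). For KC_Epo 3 over KC_Epo 2, Fgf23 had a ratio of 1.56 (1.3 to 1.86), with medians of 2.0 for hepatocyte, 1.61 for stellate, 1.34 for endothelial, 1.31 for erythroid and 0.92 for Kupffer markers. By the first pair Fgf23 lay within the range of the hepatocyte markers and above every stellate, endothelial, erythroid and Kupffer marker, and by the other pair it lay within the ranges of the hepatocyte (1.18 to 2.28), stellate (1.03 to 1.98), endothelial (1.09 to 1.65) and erythroid markers (0.934 to 1.62) and above those of the Kupffer markers (0.86 to 1.09). The 4 megakaryocyte and platelet markers had medians of 2.16 for the first pair and 1.68 for the other. The 2 cholangiocyte markers had 2.18 and 1.39. Medians above 1 were also found for dendritic (1.49 and 1.18), monocyte (1.29 and 1.22) and neutrophil markers (1.36 and 1.18), each with some genes below 1. B and plasma cell markers went the other way with 0.613 and 0.89, as did T and NK markers with 0.673 and 0.883. Stellate and endothelial markers shared the direction of the Fgf23 ratios. Their sums were lower in KC_Epo than in KC_EV, and whether such cells held Fgf23 was not tested.

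**Figure D3:**
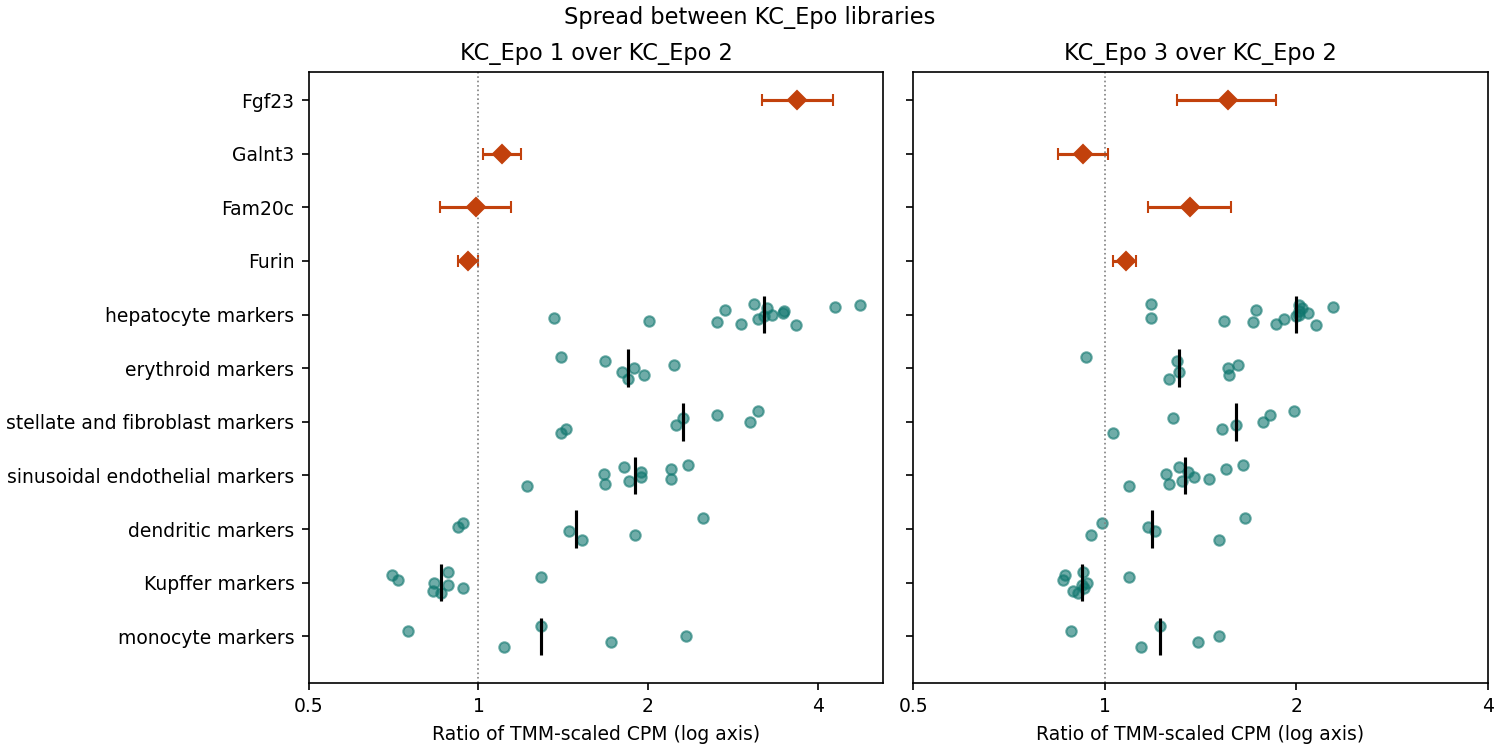
Ratio between KC_Epo libraries of TMM-scaled CPM, on log axes, for 4 members (diamonds, with 95% counting intervals; Pcsk5 is left out for its low counts) and for single marker genes of 7 cell types (points, with the median as a black bar). For KC_Epo 1 over 2, Fgf23 at 3.68 lies among the hepatocyte markers, and Galnt3, Fam20c and Furin lie near 1.

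The summed level of the 15 hepatocyte markers, all in the table, was 6665 to 22810 CPM in KC_Epo and 2821 to 3521 CPM in KC_EV, and 12 of the 15 passed as higher. Alb alone made up 3996 to 14660 CPM of the KC_Epo sums. Cyp3a11 was higher but did not pass. Cps1 and Pck1 went the other way without passing, with 1.752 and 2.03 CPM in KC_Epo and 2.354 and 3.449 CPM in KC_EV. The erythroid sum was 606.4 to 1109 CPM in KC_Epo and 33.55 to 43.18 CPM in KC_EV, with 10 of 11 listed markers in the table and 7 of 7 tested markers higher, while Klf1 and Gata1, the erythroid transcription factors that mark nucleated precursors, averaged 0.149 and 0.148 CPM in KC_Epo and 0.132 and 0.053 CPM in KC_EV. Kupffer markers summed to 37730 to 40480 CPM in KC_Epo and 22340 to 24290 CPM in KC_EV, with 8 of 9 higher, so the sorted cell type was present in all 6 libraries. Stellate and fibroblast markers summed to 26.54 to 62.65 CPM in KC_Epo and 108.6 to 119.5 CPM in KC_EV, and sinusoidal endothelial markers to 1353 to 2198 CPM in KC_Epo and 4015 to 4860 CPM in KC_EV. The Kupffer markers had a median log2 fold change of 0.785, beside 0.68 for Galnt3, 0.81 for Fam20c and 0.58 for Furin. The part of the Kupffer cell share and of these other cell types in the members' differences was not tested.

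Markers of bone, the textbook source of the hormone, were low in both groups. The osteoblast and osteocyte list summed to 6.393 to 6.66 CPM in KC_Epo and 6.08 to 7.638 CPM in KC_EV, and 5 of its 10 genes, Dmp1, Mepe, Bglap, Bglap2 and Sp7, are not analysed here. Phex, whose loss raises FGF23, had 4, 0 and 4 counts in KC_Epo and 0, 1 and 4 counts in KC_EV. The 3 genes of the list that could be tested are all named here, outside the rule for named genes and after their values were seen. Sost, an osteocyte gene, had 15, 32 and 10 counts in KC_Epo and 2, 1 and 2 counts in KC_EV (edgeR quasi-likelihood adjusted p = 0.00436). Alpl, the phosphatase gene of osteoblasts that other tissues express too, had 79, 19 and 50 counts in KC_Epo and 12, 10 and 32 counts in KC_EV and did not pass. Runx2, the osteoblast transcription factor gene, had 101, 152 and 78 counts in KC_Epo and 179, 221 and 197 counts in KC_EV (adjusted p = 0.0418). KC_Epo 2, where Fgf23 was lowest, was the highest KC_Epo library for Sost and Runx2 and the lowest for Alpl, which had the order of Fgf23.

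Genes most like Fgf23 were sought among 12615 genes with at least 100 counts in all, by comparing how each gene's summed CPM was shared out over the 6 libraries (total variation distance, 0 for identical shares and 1 for none in common). The 5 nearest were Pnlip at 0.0454, Cyp4a14 at 0.0494, Hsd17b6 at 0.0636, Cyp2c38 at 0.0671 and Cpa1 at 0.077. Cyp4a14 and Cyp2c38 encode cytochrome P450 enzymes, Hsd17b6 a steroid dehydrogenase, and Pnlip and Cpa1 pancreatic lipase and carboxypeptidase. Cyp4a14, which has close paralogs that may share its reads, had 1672, 346 and 593 counts in KC_Epo and 2, 9 and 13 counts in KC_EV. Pnlip had 86, 17 and 27 counts in KC_Epo and 0, 5 and 0 counts in KC_EV. Hsd17b6 had 318, 62 and 107 counts in KC_Epo and 5, 10 and 8 counts in KC_EV. Because the 5 were picked for shares close to those of Fgf23, their high KC_Epo 1 and low KC_EV libraries follow from the choice. The distance to Fgf23 was 0.16 for Hba-a1, 0.186 for Alb and 0.435 for Clec4f, and 0.401 to 0.437 for Galnt3, Fam20c and Furin.

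The promoter of Fgf23 is shown because the gene was all but silent in one group. It covers 250 bases before to 50 after the start of the gene, chr6:127072652-127072951 on the plus strand (RefSeq, GRCm38.p6). Capitals mark the only matches, on either strand, to 3 short motifs that were picked with the sequence in view: GATAA of GATA factors at bases 24 to 28 of the window, and TTCNNNGAA of STAT factors at bases 150 to 158. The core ACGTG of the hypoxia response element was not among its letters.

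Fgf23 promoter: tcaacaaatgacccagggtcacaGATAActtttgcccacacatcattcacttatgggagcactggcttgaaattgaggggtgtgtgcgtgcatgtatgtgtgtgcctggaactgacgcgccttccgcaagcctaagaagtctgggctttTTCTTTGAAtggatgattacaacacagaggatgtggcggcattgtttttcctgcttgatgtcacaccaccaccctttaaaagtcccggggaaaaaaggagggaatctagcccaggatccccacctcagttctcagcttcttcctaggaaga

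Of 32851 RefSeq promoters of the same length, 25.4% held GATAA, 8.3% held TTCNNNGAA and 19.6% held ACGTG. RefSeq listed 1 promoter each for Galnt3, Fam20c and Pcsk5, which matched none of the 3 motifs, and 2 for Furin, of which 1 held ACGTG. A match is a string of letters and was not tested as a binding site.

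The receptors that FGF23 acts on were represented mainly by Fgfr1. It stood at 120, 114 and 114.4 CPM in KC_Epo and averaged 116.1 ± 3.349 CPM there and 41.25 ± 5.203 CPM in KC_EV, a log2 fold change of 1.49 ± 0.09 (edgeR quasi-likelihood adjusted p = 5.08e-07). Fgfr1 rose in every KC_Epo library, without the gap between KC_Epo 1 and 2 seen for Fgf23. Of the 4 FGF receptor genes 1 passed, and Fgfr2, Fgfr3 and Fgfr4 averaged 2.067, 2.008 and 1.107 CPM in KC_Epo and 2.673, 3.828 and 0.7249 CPM in KC_EV. Kl, the gene of the co-receptor Klotho, is not analysed here. Klb, the related co-receptor for the hormones FGF15 and FGF21, averaged 0.6295 CPM in KC_Epo and 0.09332 CPM in KC_EV. Its log2 fold change was 2.72 ± 0.79 (edgeR quasi-likelihood adjusted p = 0.02). Its call did not hold without KC_Epo 1, KC_EV 2 or KC_EV 3, with adjusted p between 0.0199 and 0.0937 over 15 alternatives. Fgf21 and Fgf15 had too few counts to be tested.

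Among the other proprotein convertases, relatives of Furin and Pcsk5, 2 of 4 tested genes rose and none fell, with a median log2 fold change of 0.34. Pcsk6 stood at 5.976, 1.416 and 2.916 CPM in KC_Epo and averaged 1.19 ± 0.334 CPM in KC_EV, with overlapping groups (log2 fold change 1.53 ± 0.49, edgeR quasi-likelihood adjusted p = 0.0338). It had the order of KC_Epo libraries seen for Fgf23 and Alb. Pcsk7, a widely expressed convertase, was even across libraries, with 78.8 ± 2.642 CPM in KC_Epo and 66.05 ± 2.479 CPM in KC_EV (0.25 ± 0.07, adjusted p = 0.0158). With library sizes only neither passed, and with upper quartile factors Pcsk7 did not. Of single libraries left out, KC_Epo 3 ended the call of Pcsk7, and any but KC_Epo 2 that of Pcsk6.

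The other GalNAc transferases, which share the chemistry of GALNT3 but not its known role at the FGF23 site, split in direction. Of 9 tested genes 2 rose and 4 fell, with a median log2 fold change of 0.08. Galnt6 rose to 97.01 ± 4.104 CPM in KC_Epo, against 72.78 ± 4.455 CPM in KC_EV (0.41 ± 0.07, edgeR quasi-likelihood adjusted p = 0.00123). Galnt4 fell to 8.633 ± 0.3265 CPM in KC_Epo, against 15.26 ± 2.623 CPM in KC_EV (-0.82 ± 0.15, adjusted p = 0.0015), and Galnt18 fell to 7.558 ± 2.23 CPM, against 14.89 ± 2.264 CPM (-0.98 ± 0.21, adjusted p = 0.00455). Among 8 tested genes that extend or cap the sugar, 2 rose and 1 fell. The sialyltransferase gene St6galnac2, whose symbol is on 2 rows of which the larger was kept, averaged 32.09 ± 3.438 CPM in KC_Epo and 11.26 ± 0.8994 CPM in KC_EV (1.51 ± 0.12, adjusted p = 2.9e-06). St6galnac4 rose as well (0.58 ± 0.10, adjusted p = 0.000908), and St6galnac3 fell (-1.71 ± 0.25, adjusted p = 0.000464). C1galt1, which adds the next sugar to the one GALNT3 places, had 20.4 ± 1.65 CPM in KC_Epo and 20.11 ± 1.931 CPM in KC_EV.

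Of 5 tested secretory kinases other than Fam20c, 1 rose and 1 fell. Pomk, a kinase of the sugar chain on dystroglycan, averaged 52.08 ± 2.266 CPM in KC_Epo and 32.94 ± 3.073 CPM in KC_EV (0.66 ± 0.09, edgeR quasi-likelihood adjusted p = 0.000165). Fam20a, the pseudokinase partner that activates FAM20C, fell to 5.134 ± 2.104 CPM in KC_Epo, against 11.4 ± 1.925 CPM in KC_EV (-1.16 ± 0.30, adjusted p = 0.0189). The call of Fam20a did not hold without KC_EV 2 or KC_EV 3, with adjusted p between 0.000274 and 0.0673 over 16 alternatives.

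**Figure D4:**
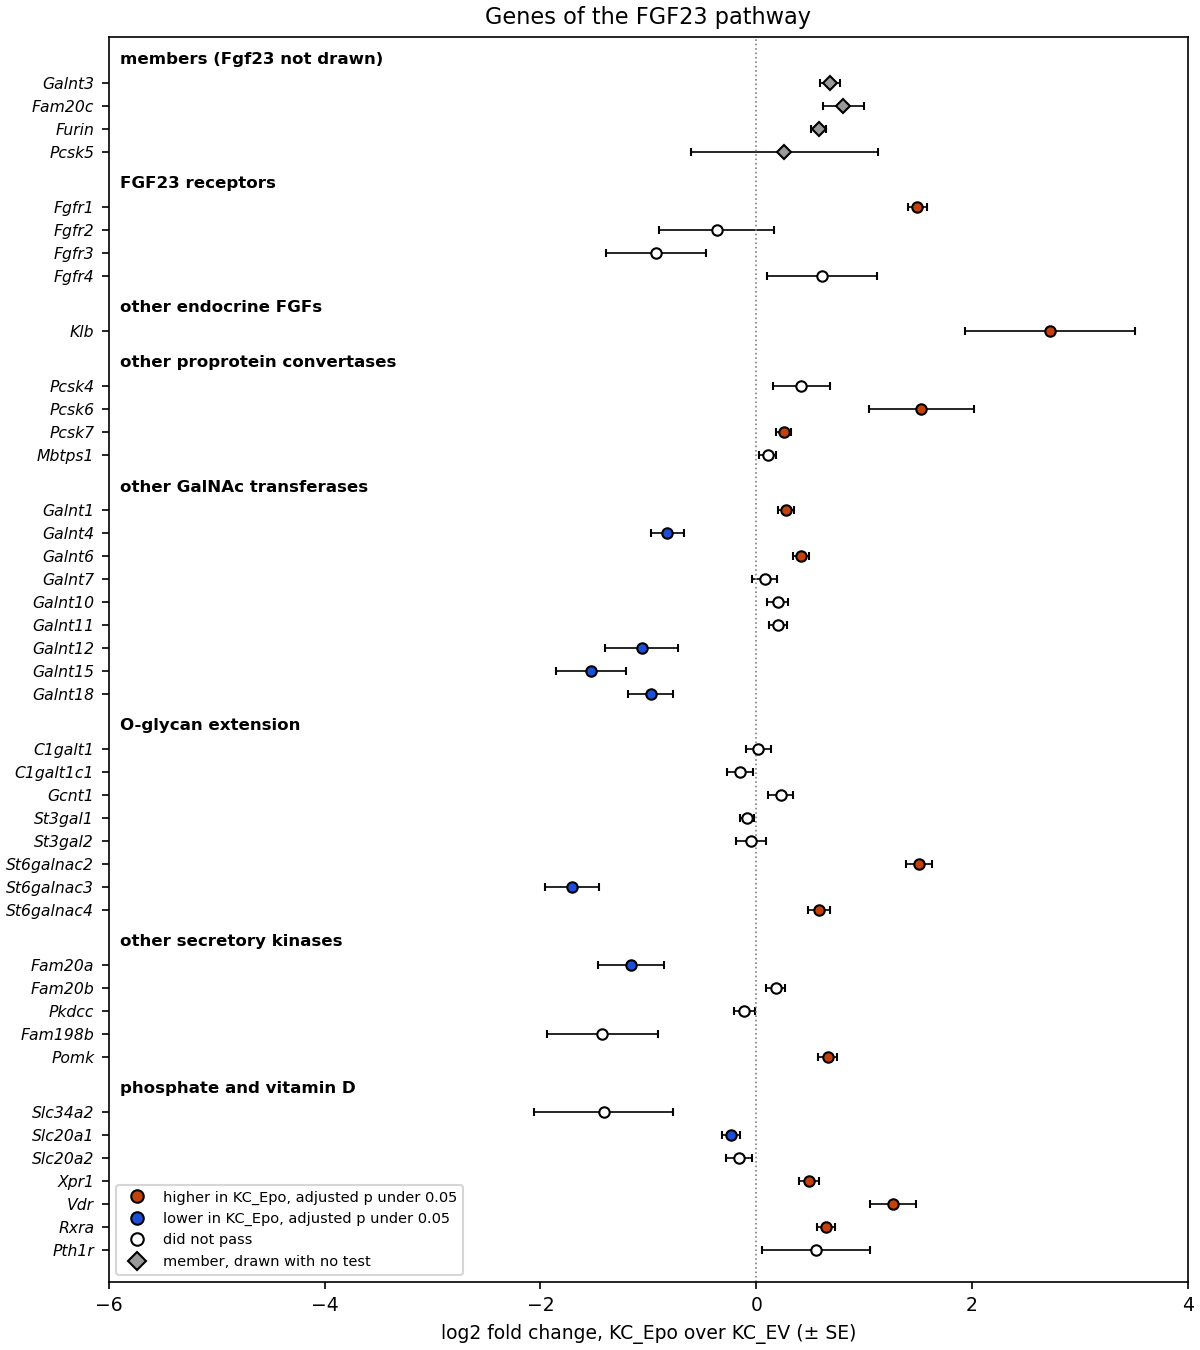
Log2 fold change (KC_Epo over KC_EV, ± SE) of the processing genes and of the tested genes of 7 related lists; filled circles passed an edgeR quasi-likelihood adjusted p of 0.05, open circles did not, and diamonds are members, drawn with no test. Fgfr1 at 1.49 and St6galnac2 at 1.51 lie right of 0 with short error bars, and the GalNAc transferases lie on both sides.

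Genes of phosphate and vitamin D handling, the processes FGF23 controls in the kidney, had 3 risers and 1 faller among 7 tested. Vdr, the vitamin D receptor, rose to 10.9 ± 2.517 CPM in KC_Epo, against 4.511 ± 0.8101 CPM in KC_EV (1.27 ± 0.21, edgeR quasi-likelihood adjusted p = 0.000797). Its dimer partner Rxra averaged 607.6 ± 58.37 CPM in KC_Epo and 388.4 ± 6.639 CPM in KC_EV (0.65 ± 0.08, adjusted p = 0.000108). The phosphate exporter gene Xpr1 averaged 74.19 ± 5.222 CPM in KC_Epo and 52.82 ± 5.214 CPM in KC_EV (0.49 ± 0.09, adjusted p = 0.00144). Slc34a1, Slc34a3 and Cyp24a1, the renal transporters and the vitamin D hydroxylase that are classical FGF23 targets, are not analysed here.

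Genes of the stimuli known to act on Fgf23 moved both ways. Of 15 inflammatory genes 5 rose and 5 fell. Il1b, a known inducer of Fgf23, fell to 183.3 ± 7.304 CPM in KC_Epo, against 447.5 ± 23.45 CPM in KC_EV (-1.29 ± 0.07, edgeR quasi-likelihood adjusted p = 3.38e-07). Tnf fell to 48.21 ± 1.381 CPM in KC_Epo, against 146.6 ± 9.565 CPM in KC_EV (-1.61 ± 0.07, adjusted p = 7.36e-08), and Nfkb1 fell to 146.9 ± 1.51 CPM, against 218.8 ± 2.085 CPM (-0.58 ± 0.06, adjusted p = 4.51e-05). The groups did not overlap for any of these 3 genes. The 5 that rose were Il6, Il6ra, Tnfrsf1a, Orai1 and Stim1. Il6 averaged 22.87 ± 1.667 CPM in KC_Epo and 17.39 ± 0.2494 CPM in KC_EV, without overlap. With library sizes only, 2 of these 15 genes rose and 5 fell.

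Of 8 oxygen-sensing genes none rose and 2 fell, each by a small step. Hif1a averaged 63.56 ± 1.955 CPM in KC_Epo and 76.35 ± 9.245 CPM in KC_EV (-0.27 ± 0.09, edgeR quasi-likelihood adjusted p = 0.0387), and Vhl, whose product degrades HIF1A, averaged 20.25 ± 0.7305 CPM in KC_Epo and 24.62 ± 1.697 CPM in KC_EV (-0.28 ± 0.10, adjusted p = 0.048). Hif1a did not pass when any single library other than KC_EV 3 was left out, and Vhl did not pass when any one of the 6 was left out. Of 5 genes of erythropoietin signalling 1 rose and 1 fell. Epor, the erythropoietin receptor gene, averaged 29.4 ± 1.617 CPM in KC_Epo and 12.94 ± 2.648 CPM in KC_EV (1.18 ± 0.14, adjusted p = 7.53e-05). Jak2, the kinase it signals through, averaged 49.73 ± 4.831 CPM in KC_Epo and 70.97 ± 2.252 CPM in KC_EV (-0.51 ± 0.08, adjusted p = 0.000722).

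Over all 10 lists, 66 of 88 genes were tested, 18 rose and 15 fell. Of all tested genes 16.9% passed as higher and 15.4% as lower, the background for the count of each list. The median log2 fold change was 0.03 over the lists beside -0.0045 for all tested genes. With upper quartile factors 15 rose and 17 fell, and with library sizes only 12 rose and 20 fell.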

How the data were processed

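Libraries were made from polyA RNA with a stranded TruSeq mRNA kit, per the labels' protocols. GRCm39 is the build in the submitters' processing notes, which also list, without role or order, HTSeq 0.11.2, STAR 2.7.3a, Bowtie2 2.5.1 and FastQC 0.11.8; the counting options are not stated there. The authors deposited raw read counts per gene symbol, which were not normalized; 12 symbols stand on 2 rows, of which the larger kept the name, and no row total was below 5.

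Library totals were 32445139, 33280754 and 23201076 counts in KC_Epo 1 to 3 and 30229989, 29327625 and 32199405 in KC_EV 1 to 3; TMM factors were 0.934 to 0.959 in KC_Epo and 1.05 to 1.07 in KC_EV. Within a group, library pairs differed by at least 6.15 in chi-square per gene, far above sampling noise. KC_Epo 1 and 2 differed most, at 85.2, and every other pair lay at 22.3 or below. In R 4.3.3, edgeR 4.0.16 was run on the counts with TMM factors, filterByExpr, a robust quasi-likelihood fit of KC_Epo over KC_EV without a block, two-sided F tests and Benjamini-Hochberg adjustment over 13120 genes at 0.05. Standard errors were taken from the F statistic. The fit was tested on simulated data. Alternatives were other scalings and filters, DESeq2 1.42.0, limma-voom 3.58.1, a prior count of 1, a non-robust fit, a replicate block and leaving out each library.

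Intervals are exact at 95%, and the floor is 3 counts. Named genes were the 5 members, Hba-a1, Alb, Clec4f, Kl, Fgfr1, Klb, Epor, Il1b and Hif1a, up to 3 passing genes per list, taken by smallest adjusted p, and the 5 genes most like Fgf23; other genes appear to complete a list or a role. The members and lists were chosen with earlier results of these data known. Older symbols were matched through RefSeq names only where unambiguous, which placed Gask1a and Gask1b as Fam198a and Fam198b. A gene of the lists is not reported here and is left out of their counts. Sequences and lengths come from GRCm38 (GENCODE vM21, RefSeq), another build than that of the counts, whose coordinates are not used here.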

Additional observations from a re-analysis of the deposited data

How the results depend on the processing

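With 3 libraries a group, single libraries moved the count of genes called. It was 4234 with all 6 libraries and ran from 2728 to 4557 when one was left out, the lowest without KC_Epo 3. The count of members called ran from 3 to 4 and that of the 10 pathway lists from 24 to 34 (33 with all libraries). The Fgf23 ratio ran from 325, taken at the floor of 3 counts without KC_EV 2, to 1893. With TMM-scaled library sizes it was 1599. The fitted log2 fold change of Fgf23, 10.12 ± 1.12, is no bound, since it depends on the prior count: it was 8.53 with a prior count of 1, 9.30 by limma-voom, 9.41 without KC_Epo 1 and 11.91 without KC_EV 2.

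For the 30 named genes that passed, members aside, 435 of 476 values under the alternatives passed too, 41 lost the call and 0 turned in sign. For the 4 members called, 2 of 64 lost it, Fam20c without KC_Epo 3 and Fgf23 without KC_EV 2. Pcsk5, never called, turned in sign without KC_Epo 1 and without KC_EV 2, and could not be fitted with a filter of 1 CPM in 3 libraries. No pairing by replicate number was seen: the deviations of same-numbered libraries correlated at -0.108, -0.148 and -0.041, and no library correlated best with its own number. With 3 libraries a group, this cannot show whether same-numbered libraries were prepared together. A replicate block gave 3358 calls, 3311 of them shared with the fit without it, 4 members and 28 pathway genes; Alb, Fam20a, Hif1a and Vhl lost their calls under the block. With the floor of 3 counts, a count of 0 in a library limits Fgf23 only to below about 0.09 CPM.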
